A study of Mus musculus with 17 samples.

Results

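Pycr1 and 9 other genes were followed in RNA from mouse embryonic kidneys in which beta-catenin, the effector of canonical Wnt signalling, had been activated. Most belong to proline, serine and one-carbon metabolism. The others are the transcription factor Atf4, asparagine synthetase Asns and the cystine carrier Slc7a11. Together with Pycr1 these genes are 10 of the 24432 gene IDs in the deposited table. Pycr1 was chosen by its measured FPKM, which were about 4 times higher in both mutants than in their wild types, so its change is given as a description, with no test. Aldh18a1, Phgdh, Psat1, Psph, Asns, Shmt2, Mthfd2, Atf4 and Slc7a11 were listed for their function while results of these data were already known. All 10 were matched by symbol and passed the filter on low values.

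The 17 libraries came from whole kidneys dissected at E12.5, all of mixed strain. In 5 libraries, labelled Ctnnb1-delta3 c/+;Foxd1 and called Foxd1-Cre here, a conditional allele that activates beta-catenin by loss of exon 3 was carried on 1 Ctnnb1 copy and recombined in the stromal lineage, where Foxd1 drives Cre. In 3 libraries, labelled Ctnnb1-delta3 c/+;Six2 and called Six2-Cre here, the same allele was recombined in nephron progenitors and their descendants, where Six2 drives Cre. The other 9 libraries are labelled wild-type; whether those embryos carried an unrecombined allele or a Cre is not stated. The labels do not say whether a library is 1 embryo, a pair of kidneys or a pool, so p-values measure only the spread between these samples.

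Proline is made from glutamate in mitochondria: Aldh18a1 forms the intermediate pyrroline-5-carboxylate, and Pycr1 reduces it to proline, the amino acid that collagen holds in unusual amounts. Phgdh, Psat1 and Psph turn a glycolytic intermediate into serine, and Shmt2 and Mthfd2 take a carbon from serine into the mitochondrial folate pool. Atf4, a transcription factor whose amount is set largely by translation, is known to activate genes for amino acid synthesis, including Asns, Phgdh, Psat1, Pycr1 and the cystine carrier Slc7a11.

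The sequences just upstream of the members are shown because Atf4 acts through a known element, TGATGNAA, and 3 of the 10 members hold it close to the start. RefSeq promoter windows (GRCm38.p6, 250 bases before to 50 after each start) were found for all 10 members, 11 windows in all. TGATGNAA, searched on both strands, lay in the windows of Asns, Pycr1 and Slc7a11 and in 3.97% of all 32851 windows. The lines below run 5′ to 3′ on the strand of the gene, with capitals for the letters that match.
Pycr1, chr11:120643770-120643998, minus strand: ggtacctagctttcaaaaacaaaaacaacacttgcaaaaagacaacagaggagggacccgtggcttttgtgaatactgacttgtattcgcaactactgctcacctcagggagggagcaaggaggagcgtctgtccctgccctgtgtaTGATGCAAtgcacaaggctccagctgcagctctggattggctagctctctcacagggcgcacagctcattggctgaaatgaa
Asns, chr6:7693214-7693243, minus strand: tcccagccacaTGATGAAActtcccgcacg
Slc7a11, chr3:50443642-50443690, minus strand: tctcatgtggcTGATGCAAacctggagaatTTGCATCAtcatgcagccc

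Distances are counted from the RefSeq starts, which lie at 120643748 in Pycr1, 7693209 in Asns and 50443613 in Slc7a11, and differ from the outer ends of the GENCODE genes given below. The match began 103 bases upstream of that start in Pycr1, 23 bases upstream in Asns, and 66 and 47 bases upstream in Slc7a11, where the second match is on the opposite strand. The match in Asns lies inside the gene as GENCODE draws it, which begins at 7693254. CTTTGAA or CTTTGAT, forms of the site that the Wnt effectors TCF and LEF recognise, was found in none of the 11 member windows on either strand and in 8.65% of all windows. The motifs do not overlap each other. A match describes the letters of this window only.

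Expression was given as FPKM, read fragments scaled to transcript length and library total, so levels of different genes can be set side by side. The libraries fall into 2 sets that the labels do not name, and each mutant was compared with wild types from the same set: Foxd1-Cre with wild types 1 to 6, and Six2-Cre with wild types 7 to 9. The 11 libraries of set 1 had 5312 to 5807 genes at 0, and the smallest step between FPKM values corresponded to 28800000 to 37400000 reads. The 6 libraries of set 2 had 7590 to 7891 genes at 0 and steps that corresponded to 5240000 to 5790000 reads, so low values are less precise there. One read on a transcript of 1 kilobase was worth at most 0.0347 FPKM in set 1 and 0.191 FPKM in set 2, and these steps cover counting error only. Mutant and library set cannot be told apart between Foxd1-Cre and Six2-Cre, since no library of one mutant lies in the set of the other. Beside each fold or log2 change below stands limma's standard error (SE), and beside each FPKM mean the standard deviation (SD).

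In the wild types Pycr1 stood ninth of the 10 genes in FPKM in both library sets. In set 1 (n = 6) the order ran from Atf4 at 128 ± 9.00 FPKM and Phgdh at 118 ± 8.42 FPKM, whose ranges overlapped, to Psat1 at 76.5 ± 6.51 FPKM. Shmt2 at 34.8 ± 1.61 FPKM and Mthfd2 at 31.1 ± 2.10 FPKM followed and overlapped. Aldh18a1 came next at 22.2 ± 1.19 FPKM. Psph at 16.9 ± 0.286 FPKM and Asns at 16.3 ± 0.691 FPKM overlapped, and below them were Pycr1 at 11.3 ± 0.732 FPKM and Slc7a11 at 1.03 ± 0.367 FPKM. So Pycr1, an enzyme of the last step of proline synthesis, was listed below Aldh18a1, the enzyme of the steps before it, in every wild-type library. Pycrl, described below, encodes another enzyme of that last step. It averaged 51 ± 1.58 FPKM in wild types of set 1 and 33.3 ± 2.73 FPKM in those of set 2, above Aldh18a1 in every one. In set 2 (n = 3) Phgdh, at 88.0 ± 8.64 FPKM, and Atf4, at 85.1 ± 2.69 FPKM, were again highest and overlapped, and Pycr1, at 7.16 ± 0.698 FPKM, was again above Slc7a11 alone, which was at 4.99 ± 0.431 FPKM. Between them, Aldh18a1 at 26.9 ± 1.02 FPKM and Mthfd2 at 24.1 ± 2.80 FPKM overlapped, and the other neighbours in the order did not.

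Pycr1 (ENSMUSG00000025140, chromosome 11, 120635712 to 120643769, GRCm38, minus strand) had 49.6, 38.0, 45.6, 55.7 and 55.0 FPKM in the 5 Foxd1-Cre libraries. In wild types 1 to 6 its lowest value was 10.4, its median 11.5 and its highest 12.4 FPKM. Every Foxd1-Cre library was above every wild type of its set, and the mutants were also more spread out among themselves. By any margin, 6.89% of all genes lay apart on the higher side in this comparison and 10.7% in either direction. The means were 48.8 ± 7.34 FPKM (SD, n = 5) in Foxd1-Cre and 11.3 ± 0.732 FPKM (SD, n = 6) in wild type, a fold of 4.30 and a log2 change of 2.00 ± 0.09 (SE). In the 3 Six2-Cre libraries Pycr1 had 22.0, 34.0 and 31.5 FPKM, against 7.68, 7.43 and 6.36 FPKM in wild types 7 to 9. Here too the groups did not overlap, as for 35.7% of all genes in this comparison of 3 against 3 (18.0% on the higher side), and the lowest mutant, Six2-Cre 1, was still clear of the highest wild type. The means were 29.2 ± 6.35 FPKM in Six2-Cre and 7.16 ± 0.698 FPKM in wild type (SD, n = 3 each), a fold of 4.07 and a log2 change of 1.87 ± 0.17 (SE).

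**Figure D1:**
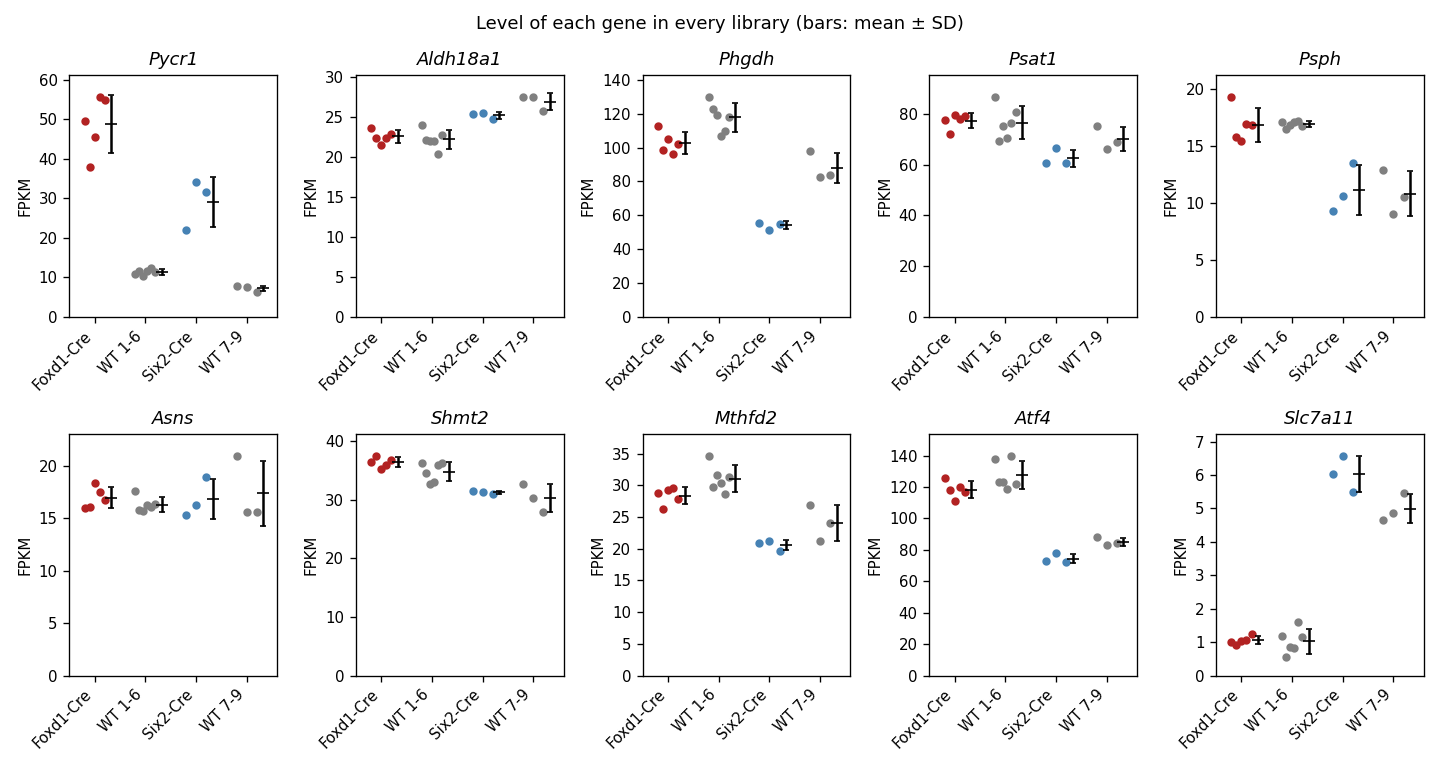
FPKM of the 10 genes in each of the 17 libraries, 1 panel per gene, with a linear axis from 0, points for libraries and bars for the mean ± SD of each group. Pycr1 runs from 38.0 to 55.7 FPKM in Foxd1-Cre and from 22.0 to 34.0 FPKM in Six2-Cre, above all wild types, while the mutants and wild types of the other genes lie closer together.

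The panels of levels per library show that Pycr1 is the member that separates mutants from wild types in both sets. Its log2 changes differed between the mutants by 0.13 ± 0.19 (SE, Foxd1-Cre minus Six2-Cre). Pycr1 was chosen for a similar rise in both mutants, so nothing is read from this difference. By size, the change of Pycr1 was number 45 of 13996 genes in Foxd1-Cre and number 87 of 13828 in Six2-Cre. Changes of at least 1.8 on the log2 scale were found for 51 genes in Foxd1-Cre (0.364%) and 108 genes in Six2-Cre (0.781%), and 10 genes, Pycr1 among them, equalled or passed the change of Pycr1 in both mutants. These places describe how Pycr1 was chosen. Pycr1 overlaps no annotated gene. Summed neural and glial markers, given below with those of the other cell types, were also higher in both mutants. In Foxd1-Cre that sum rests on Tubb3, as 1 of the 4 tested markers rose (Tubb3) and 1 fell (Stmn2), with a median log2 change of -0.10; in Six2-Cre 2 rose, with a median of 0.48. Their part in the level of Pycr1 was not tested. The shares of all genes called stand with the marker counts below.

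None of the other 9 members rose in either mutant. In Foxd1-Cre 1 of the 9 fell (Phgdh) and 8 did not pass the test, with a median log2 change of 0.02, against -0.01 over all genes tested; limma called 13.3% of 13996 genes, 8.45% as higher and 4.82% as lower. In Six2-Cre 2 of the 9 fell (Atf4 and Phgdh) and 7 did not pass, with a median of -0.09, against -0.01 over all genes; limma called 13.8% of 13828 genes, 7.93% as higher and 5.84% as lower. At an unadjusted p under 0.05 the members counted as higher were also 0 in both mutants, and those counted as lower were 2 in Foxd1-Cre and 3 in Six2-Cre. The members were chosen with these comparisons known, so nothing is read from these counts against the share over all genes. No member lay wholly below its wild types in Foxd1-Cre, as 3.80% of all genes did. In Six2-Cre Aldh18a1, Phgdh, Mthfd2 and Atf4 lay wholly below theirs, as 17.7% of all genes did. Slc7a11 lay wholly above there, as 18.0% did. Each adjusted p below comes from limma with Benjamini-Hochberg adjustment over all genes, two-sided.

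**Figure D2:**
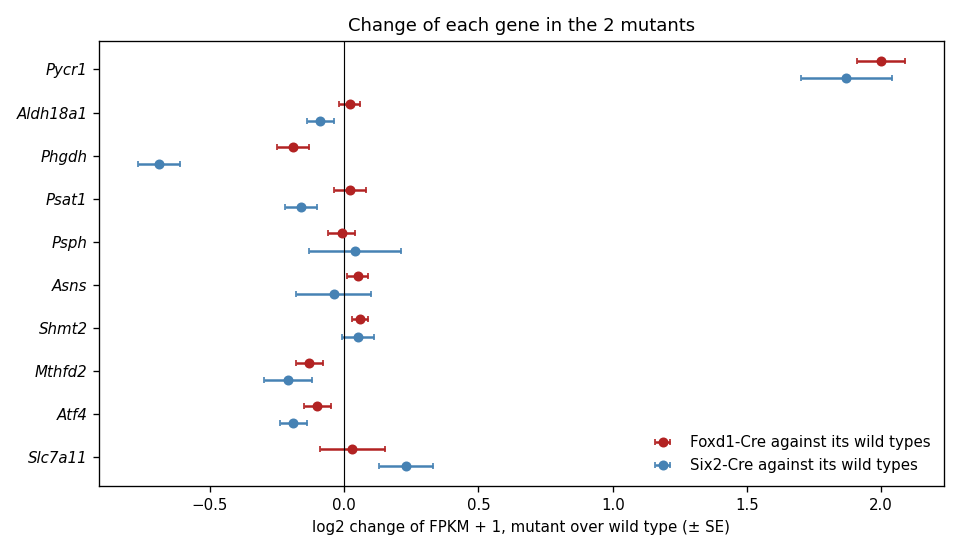
Log2 change of FPKM + 1 (± SE) of the 10 genes in Foxd1-Cre (n = 5) over wild types 1 to 6 (n = 6) and in Six2-Cre (n = 3) over wild types 7 to 9 (n = 3). Pycr1 lies at 2.00 and 1.87, and the other 9 genes lie between -0.69 and 0.23.

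In the plot of log2 changes the 9 other members gather near 0 in Foxd1-Cre, between -0.19 and 0.06, and spread further in Six2-Cre, between -0.69 for Phgdh and 0.23 for Slc7a11. Aldh18a1 (ENSMUSG00000025007, chromosome 19, 40550257 to 40588463) supplies the substrate of Pycr1. It had 23.6, 22.4, 21.5, 22.4 and 22.8 FPKM in Foxd1-Cre, inside the wild-type range of 20.4 to 24.0 FPKM (median 22.0). Its log2 change there was 0.02 ± 0.04 (SE, adjusted p = 0.782). In Six2-Cre it had 25.3, 25.5 and 24.7 FPKM, against 27.5, 27.5 and 25.7 FPKM in wild types 7 to 9. The groups did not overlap, as for 17.7% of all genes on the lower side, and the log2 change of -0.09 ± 0.05 did not pass (adjusted p = 0.266).

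Pycrl (ENSMUSG00000022571, chromosome 15, 75916477 to 75921560), which encodes a cytosolic enzyme for the same reaction and is also named Pycr3, had 51.4, 48.2, 49.2, 52.4 and 49.6 FPKM in Foxd1-Cre, against 49.3 to 53.5 FPKM (median 50.8) in wild types 1 to 6. The 3 Six2-Cre libraries had 30.6, 30.6 and 27.8 FPKM, against 35.7, 34.0 and 30.3 FPKM in wild types 7 to 9. Mutants and wild types overlapped in both sets, with log2 changes of -0.02 ± 0.03 (adjusted p = 0.711) in Foxd1-Cre and -0.16 ± 0.07 (adjusted p = 0.209) in Six2-Cre. Pycr1 was listed below Pycrl in all 9 wild types. In 2 of the 5 Foxd1-Cre libraries (4 and 5) and 2 of the 3 Six2-Cre libraries (2 and 3) it stood above Pycrl.

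Prodh and Aldh4a1, genes of proline breakdown, changed differently in the 2 mutants. Of 5 genes of proline synthesis and breakdown besides the members, 1 rose and 1 fell in Foxd1-Cre, with a median log2 change of -0.02, and 1 rose and 2 fell in Six2-Cre, with a median of -0.16. Beside these counts stand 13.3% of all genes called in Foxd1-Cre and 13.8% in Six2-Cre. Prodh (ENSMUSG00000003526, chromosome 16, 18060357 to 18090203), which oxidises proline, had 3.57, 3.47 and 2.81 FPKM in Six2-Cre, against 6.78, 5.54 and 5.18 FPKM in wild types 7 to 9. It fell there by 0.67 ± 0.13 on the log2 scale (SE, adjusted p = 0.0207), although the call was lost without Six2-Cre 2 or 3 or wild type 7 or 8 (adjusted p = 0.0545 to 0.0658). In Foxd1-Cre Prodh averaged 9.45 ± 0.294 FPKM, against 9.69 ± 1.09 FPKM in wild type, and did not pass (adjusted p = 0.823). The difference of the 2 effects passed its own test, at 0.64 ± 0.14 (adjusted p = 0.0179). Prodh overlaps Dgcr6 on the opposite strand, and counting by strand is not stated.

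Aldh4a1 (ENSMUSG00000028737, chromosome 4, 139622866 to 139649690) carries on the breakdown that Prodh starts and returns glutamate. It averaged 15.2 ± 0.843 FPKM in Foxd1-Cre and 13 ± 1.05 FPKM in wild type, and rose by 0.21 ± 0.06 (adjusted p = 0.0298). In Six2-Cre it averaged 6.44 ± 0.514 FPKM, against 10.3 ± 1.33 FPKM in wild type, and fell by 0.60 ± 0.11 (adjusted p = 0.0176), with no overlap. These opposite changes differed by 0.81 ± 0.12 (adjusted p = 0.00189). The rise in Foxd1-Cre did not pass without any 1 of Foxd1-Cre 1, 2, 3 or 4 or wild type 1 or 4 (adjusted p = 0.0538 to 0.0736), and the fall in Six2-Cre did not pass without Six2-Cre 1 or 3 or wild type 7 (0.0532 to 0.0666). Oat, which leads from ornithine into the same intermediate, was at 58.7 ± 1.15 FPKM in Six2-Cre and 48.6 ± 3.96 FPKM in wild type and rose by 0.27 ± 0.06 (adjusted p = 0.0431); it overlaps Fgfr2. Prodh2, a hydroxyproline dehydrogenase, was listed at 0 in 3 Foxd1-Cre libraries and at 0.0336 and 0.0439 FPKM in the other two, against 0.427 to 1.28 FPKM in wild types 1 to 6, and fell by 0.85 ± 0.11 (adjusted p = 3.1e-04).

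No gene of serine synthesis rose in either mutant, and that of its first enzyme fell in both. Phgdh (ENSMUSG00000053398, chromosome 3, 98313170 to 98339990) had 55.6, 51.4 and 55.1 FPKM in Six2-Cre, against 97.9, 82.3 and 83.7 FPKM in wild types 7 to 9. All Six2-Cre libraries were well below the lowest wild type, and the fall was 0.69 ± 0.08 on the log2 scale (SE, adjusted p = 0.00368), to 0.614 of the wild-type mean. This call held without each of the 6 libraries in turn (adjusted p at most 0.0190). In Foxd1-Cre Phgdh had 113, 98.4, 105, 96.2 and 102 FPKM, against a wild-type range of 107 to 130 FPKM with a median of 119. Only Foxd1-Cre 1 lay inside that range, and the fall of 0.19 ± 0.06 (adjusted p = 0.0397) was small. It did not pass without any 1 of Foxd1-Cre 2 to 5 or wild types 1, 2, 3 or 6 (adjusted p = 0.0665 to 0.0945), nor with no filter on low values (0.0506), nor against all 9 wild types (log2 -0.05, adjusted p = 0.738). Summed nephron progenitor markers, given below, were also lower in both mutants than in their wild types, and their part in the fall of Phgdh was not tested. Phgdh was the only member whose effect differed between the mutants, by 0.50 ± 0.09 (adjusted p = 0.00400), in a test that called 11.0% of 13810 genes, 5.76% with the higher effect in Foxd1-Cre and 5.24% with the lower.

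Psat1 (ENSMUSG00000024640, chromosome 19, 15904678 to 15947337), the aminotransferase after Phgdh, had 77.6, 72.2, 79.7, 78.1 and 79.3 FPKM in Foxd1-Cre, inside the wild-type range of 69.3 to 86.8 FPKM (median 75.8). Its Six2-Cre values were 60.7, 66.5 and 60.6 FPKM, against 75.3, 66.2 and 69.1 FPKM in wild types 7 to 9. Six2-Cre 1 and 3 were below the lowest wild type and Six2-Cre 2 just above it, and the log2 change of -0.16 ± 0.06 did not pass (adjusted p = 0.154). Psph (ENSMUSG00000029446, chromosome 5, 129765558 to 129787449), the phosphatase of the last step, averaged 16.8 ± 1.5 FPKM in Foxd1-Cre and 16.9 ± 0.286 FPKM in wild type, and 11.2 ± 2.17 FPKM in Six2-Cre and 10.8 ± 1.99 FPKM in wild type. Its ranges overlapped in both sets (adjusted p = 0.936 and 0.901). Psph overlaps Cct6a, so part of its value is uncertain.

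The mitochondrial folate enzymes did not pass the test in either mutant. Shmt2 (ENSMUSG00000025403, chromosome 10, 127517123 to 127522444), which splits serine into glycine and a folate-bound carbon, had 36.4, 37.5, 35.2, 35.9 and 36.7 FPKM in Foxd1-Cre, against 32.6 to 36.2 FPKM (median 35.2) in wild type. Six2-Cre kidneys had 31.5, 31.3 and 30.9 FPKM, against 32.6, 30.2 and 27.8 FPKM in wild types 7 to 9. Both pairs of groups overlapped, and neither change passed (log2 0.06 ± 0.03, adjusted p = 0.298, and 0.05 ± 0.06, adjusted p = 0.637). Shmt2 overlaps Ndufa4l2 on the opposite strand. Mthfd2 (ENSMUSG00000005667, chromosome 6, 83305691 to 83325908), which oxidises that carbon, had 20.9, 21.2 and 19.7 FPKM in Six2-Cre, against 26.9, 21.3 and 24.1 FPKM in wild types 7 to 9. The groups touched but did not overlap, and the change of -0.21 ± 0.09 did not pass (adjusted p = 0.179). In Foxd1-Cre it averaged 28.4 ± 1.31 FPKM, against 31.1 ± 2.10 FPKM in wild type (log2 -0.13 ± 0.05, adjusted p = 0.120).

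Around these members, the wider list of 15 tested genes of serine, glycine and folate metabolism had no gene that rose by limma in either mutant; at an unadjusted p under 0.05, 1 was higher and 7 were lower in Foxd1-Cre, and 0 were higher and 3 lower in Six2-Cre. In Foxd1-Cre 3 fell (Fpgs, Gldc and Shmt1) and 12 did not pass, with a median log2 change of -0.08, and in Six2-Cre 3 fell (Gldc, Mthfd1 and Shmt1) and 12 did not pass, with a median of -0.11. Of all genes tested, limma called 8.45% higher and 4.82% lower in Foxd1-Cre, and 7.93% higher and 5.84% lower in Six2-Cre. Fpgs, which retains folates in cells, fell by 0.16 ± 0.04 in Foxd1-Cre (adjusted p = 0.0131), but was higher by 0.16 against all 9 wild types (adjusted p = 0.604) and did not pass in a joint fit (0.0934). Mthfd1 (ENSMUSG00000021048, chromosome 12, 76255298 to 76319803), the cytosolic folate enzyme, had 25.0, 25.0 and 26.1 FPKM in Six2-Cre, against 37.7, 34.1 and 34.8 FPKM in wild types 7 to 9, and fell by 0.47 ± 0.05 (adjusted p = 0.00404). In Foxd1-Cre it averaged 30.4 ± 1.38 FPKM, against 31.5 ± 2.52 FPKM in wild type (adjusted p = 0.636), and the 2 effects differed by 0.42 ± 0.08 (adjusted p = 0.00176). Gldc, of the glycine cleavage system, fell by 0.32 ± 0.06 in Foxd1-Cre (adjusted p = 0.00379) and by 0.46 ± 0.09 in Six2-Cre (adjusted p = 0.0216). The Six2-Cre call for Gldc was lost without Six2-Cre 1 or 3 or wild type 7 or 9 (adjusted p = 0.0506 to 0.0801).

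Atf4 RNA was not called higher in either mutant, and fell in Six2-Cre. Atf4 (ENSMUSG00000042406, chromosome 15, 80255184 to 80257541) had 126, 118, 111, 120 and 117 FPKM in Foxd1-Cre, against 119 to 140 FPKM (median 123) in wild types 1 to 6. In Six2-Cre it had 73.2, 77.8 and 72.4 FPKM, against 88.0, 82.8 and 84.3 FPKM in wild types 7 to 9. The groups overlapped in set 1, where the change of -0.10 ± 0.05 did not pass (adjusted p = 0.214), and did not overlap in set 2, where Atf4 fell by 0.19 ± 0.05 (adjusted p = 0.0436). That fall did not pass once any 1 of the 6 libraries was left out (adjusted p = 0.0562 to 0.138). The amount of Atf4 protein, on which its activity depends, was not measured.

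Asns (ENSMUSG00000029752, chromosome 6, 7675169 to 7693254), asparagine synthetase and a textbook Atf4 target, had 16.0, 16.1, 18.4, 17.5 and 16.8 FPKM in Foxd1-Cre, against 15.7 to 17.6 FPKM (median 16.2) in wild type. The 3 Six2-Cre libraries had 15.3, 16.3 and 19.0 FPKM, against 21.0, 15.6 and 15.6 FPKM in wild types 7 to 9. Both pairs overlapped, with log2 changes of 0.05 ± 0.04 (adjusted p = 0.529) and -0.04 ± 0.14 (adjusted p = 0.885). Slc7a11 (ENSMUSG00000027737, chromosome 3, 49892526 to 50443614), which exchanges glutamate for cystine, was low in set 1, at 1.05 ± 0.120 FPKM in Foxd1-Cre and 1.03 ± 0.367 FPKM in wild type (adjusted p = 0.891). Its Six2-Cre values were 6.04, 6.58 and 5.49 FPKM, against 4.64, 4.86 and 5.47 FPKM in wild types 7 to 9. The groups did not overlap by a narrow margin and the log2 change of 0.23 ± 0.10 did not pass (adjusted p = 0.173). Several antisense genes and pseudogenes overlap Slc7a11. The 3 members that hold TGATGNAA in the printed windows differed in their values: Pycr1 was higher in both mutants, and Asns and Slc7a11 did not pass in either.

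Other known targets of Atf4 and of the stress response were called in both directions in Foxd1-Cre. Of 13 tested genes, 3 rose (Eif4ebp1, Stc2 and Vldlr) and 1 fell (Cth) in Foxd1-Cre, with a median log2 change of -0.01, and 1 rose (Vldlr) and 0 fell in Six2-Cre, with a median of -0.07. The 4 calls in Foxd1-Cre and 1 in Six2-Cre stand beside 13.3% and 13.8% of all genes. At an unadjusted p under 0.05, 4 were higher and 4 lower in Foxd1-Cre, and 1 was higher and 2 were lower in Six2-Cre. Vldlr, a lipoprotein receptor, averaged 8.10 ± 0.700 FPKM in Foxd1-Cre and 5.06 ± 0.600 FPKM in wild type, and rose by 0.59 ± 0.08 (adjusted p = 2.5e-04). In Six2-Cre it averaged 8.51 ± 0.755 FPKM, against 6.21 ± 0.646 FPKM in wild type, a rise of 0.40 ± 0.10 (adjusted p = 0.0496) that was lost without any 1 of the 6 libraries (0.0687 to 0.139). Cth, which makes cysteine, fell by 0.59 ± 0.10 in Foxd1-Cre (adjusted p = 0.00241) and changed by -0.30 ± 0.09 in Six2-Cre (adjusted p = 0.0899). Eif4ebp1, an inhibitor of translation, rose by 0.18 ± 0.04 in Foxd1-Cre (adjusted p = 0.00628) and changed by -0.35 ± 0.12 in Six2-Cre (adjusted p = 0.113), a difference of 0.52 ± 0.12 (adjusted p = 0.0368). Ddit3 and Trib3, early markers of that response, did not pass in either mutant (adjusted p = 0.704 and 0.120 in Foxd1-Cre, 0.610 and 0.612 in Six2-Cre).

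Genes that act upstream of Atf4 did not pass the test in either mutant. Beside the lists of this paragraph stand 13.3% of all genes called in Foxd1-Cre and 13.8% in Six2-Cre. Of 7 eIF2alpha kinases and translation control genes, limma called 0 in either mutant; at an unadjusted p under 0.05 the count was 0 in Foxd1-Cre and 1 in each direction in Six2-Cre. Of 20 cytosolic aminoacyl-tRNA synthetases, which charge tRNAs and are known Atf4 targets in part, 0 were called in Foxd1-Cre, and 0 at an unadjusted p under 0.05. In Six2-Cre 2 fell (Kars and Rars) and 18 did not pass, and both calls depended on single libraries; at an unadjusted p under 0.05, 8 were lower and 0 higher there, and the log2 changes of all 20 ran from -0.30 to -0.00 (median -0.11). Rars was at 58.3 ± 1.94 FPKM in Six2-Cre and 67.5 ± 1.95 FPKM in wild type, a fall of 0.21 ± 0.04 (adjusted p = 0.0286, and 0.0538 to 0.0949 where the call was lost). The endoplasmic reticulum stress genes had 0 of 10 called in Foxd1-Cre, also 0 at an unadjusted p under 0.05. In Six2-Cre 1 of 10 was called, Xbp1, with 8 higher at an unadjusted p under 0.05. Xbp1, a transcription factor of that response, was at 126 ± 4.15 FPKM in Six2-Cre and 95.4 ± 9.67 FPKM in wild type, a rise of 0.40 ± 0.08 (adjusted p = 0.0231) that was lost without any 1 of the Six2-Cre libraries or wild type 8 (0.0551 to 0.0831).

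**Figure D3:**
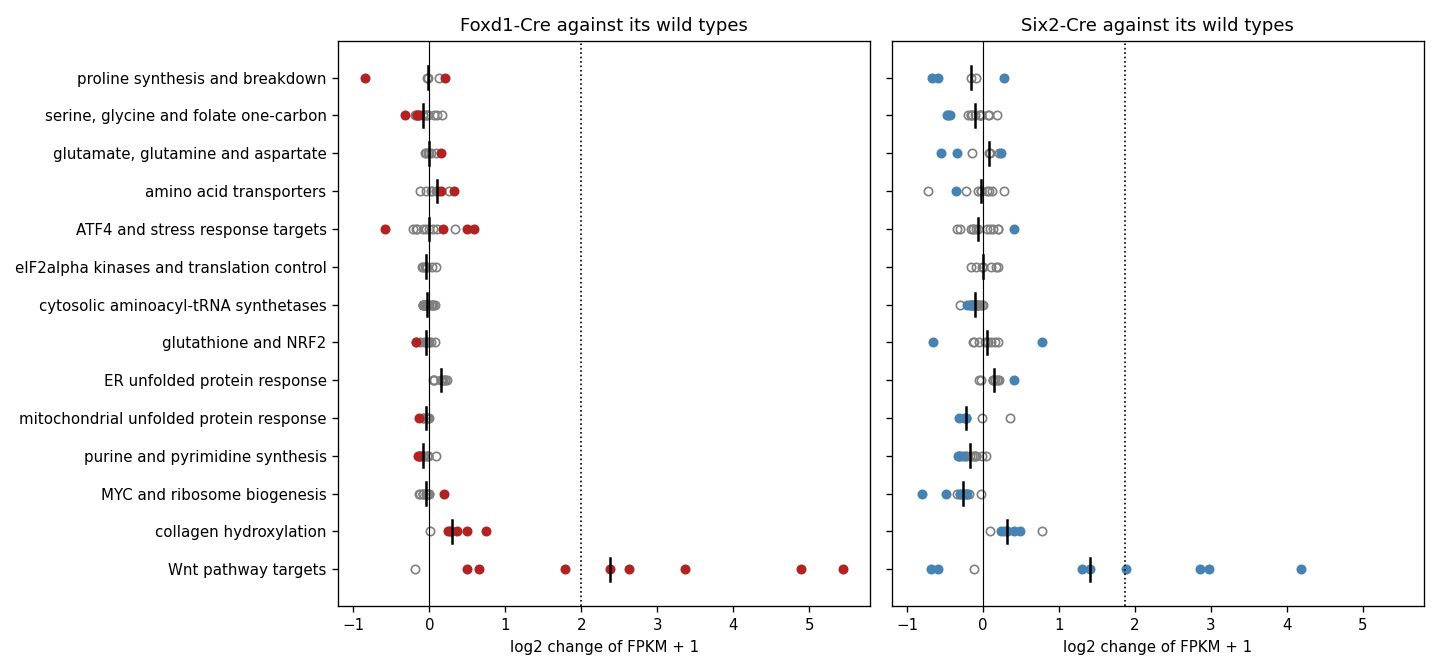
Log2 change of FPKM + 1 of each tested gene of 14 gene lists, Foxd1-Cre over wild types 1 to 6 in one panel and Six2-Cre over wild types 7 to 9 in the other, with filled points for genes past the test, open points for the rest, a bar at the median of each list and a dotted line at Pycr1 (2.00 and 1.87). The genes of collagen hydroxylation, the chaperone Serpinh1 included, lie to the right of 0 in both panels at medians of 0.29 and 0.32, and the Wnt targets alone reach the line of Pycr1.

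In the plot of gene lists, genes that use or move amino acids were called in both directions, beside 13.3% of all genes called in Foxd1-Cre and 13.8% in Six2-Cre. Of 10 tested amino acid transporters, 2 rose in Foxd1-Cre, Slc1a4 by 0.33 ± 0.05 (adjusted p = 0.00168) and Slc38a2 by 0.15 ± 0.04 (adjusted p = 0.0374), and 1 fell in Six2-Cre, Slc38a1 by 0.36 ± 0.05 (adjusted p = 0.00534). Slc1a4 carries serine and alanine. Of 7 genes of glutamate and aspartate metabolism, 1 was called in Foxd1-Cre, where Gpt2 rose by 0.15 ± 0.05 (adjusted p = 0.0495), and 3 in Six2-Cre. There Glul rose by 0.24 ± 0.06 (adjusted p = 0.0382), while the transaminases Got1 and Got2 fell by 0.56 ± 0.13 (adjusted p = 0.0344) and 0.35 ± 0.05 (adjusted p = 0.0109). The Slc38a2, Glul and Got1 calls were lost on leaving out any of several single libraries, with adjusted p of at most 0.105 there. Of 11 glutathione and NRF2 genes, Gsr fell in both mutants, by 0.18 ± 0.05 in Foxd1-Cre (adjusted p = 0.0450) and by 0.66 ± 0.08 in Six2-Cre (adjusted p = 0.00461), a difference of 0.48 ± 0.10 (adjusted p = 0.00592). Gss rose in Six2-Cre by 0.78 ± 0.19 (adjusted p = 0.0430). The Foxd1-Cre call of Gsr was lost in 9 of 11 fits without 1 library (adjusted p = 0.0530 to 0.115), and that of Gss in 5 of 6 (0.0806 to 0.120).

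Myc, a growth regulator known to act on serine and proline synthesis genes, moved in opposite directions in the mutants. It had 54.9, 53.6, 56.3, 54.5 and 55.3 FPKM in Foxd1-Cre, against 44.7 to 50.7 FPKM (median 48.2) in wild types 1 to 6. Six2-Cre kidneys had 25.2, 27.3 and 26.1 FPKM, against 48.6, 47.5 and 43.1 FPKM in wild types 7 to 9. Neither pair overlapped: every Foxd1-Cre library was above its wild types and every Six2-Cre library below. Myc rose by 0.19 ± 0.03 in Foxd1-Cre (adjusted p = 0.00170) and fell by 0.80 ± 0.06 in Six2-Cre (adjusted p = 0.00130), a difference of 1.00 ± 0.07 (adjusted p = 9.3e-06). Of the 12 genes listed with it for ribosome building, Myc included, 1 rose in Foxd1-Cre (Myc) and 8 fell in Six2-Cre. At an unadjusted p under 0.05, 1 was higher and 4 were lower in Foxd1-Cre, and 0 were higher and 11 lower in Six2-Cre. Beside this list and the next 2 stand 8.45% of all genes called higher and 4.82% called lower in Foxd1-Cre. In Six2-Cre these shares were 7.93% and 5.84%. Of 13 purine and pyrimidine synthesis genes 0 rose by limma in either mutant, while 2 fell in Foxd1-Cre and 4 fell in Six2-Cre. At an unadjusted p under 0.05, 1 was higher and 4 were lower in Foxd1-Cre, and 0 were higher and 7 lower in Six2-Cre. Paics, for instance, fell by 0.32 ± 0.04 in Six2-Cre (adjusted p = 0.00581). Of 7 mitochondrial chaperones and proteases, 1 fell in Foxd1-Cre and 3 fell in Six2-Cre, Hspd1 by 0.32 ± 0.05 (adjusted p = 0.0105). Of these 7, at an unadjusted p under 0.05, 0 were higher and 2 lower in Foxd1-Cre, and 0 were higher and 5 lower in Six2-Cre.

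Of the genes that hydroxylate proline and lysine in collagen, P4ha1, P4ha2 and P4hb rose in both mutants. Plod1 and Plod2 were called higher in Foxd1-Cre only. Of 8 genes, counted with the collagen chaperone Serpinh1, 5 rose and 3 did not pass in Foxd1-Cre (P4ha1, P4ha2, P4hb, Plod1 and Plod2; median 0.29), and 4 rose and 4 did not pass in Six2-Cre (P4ha1, P4ha2, P4hb and Serpinh1; median 0.32), beside 8.45% and 7.93% of all genes called as higher. P4ha1 (ENSMUSG00000019916, chromosome 10, 59323296 to 59373304), a catalytic subunit of prolyl 4-hydroxylase, had 125, 137, 131, 138 and 136 FPKM in Foxd1-Cre, against 61.0 to 104 FPKM (median 77.2) in wild types 1 to 6. In Six2-Cre it had 104, 89.2 and 103 FPKM, against 72.8, 69.4 and 79.4 FPKM in wild types 7 to 9. Mutants and wild types were apart in both sets, with rises of 0.74 ± 0.11 (adjusted p = 6.1e-04) and 0.41 ± 0.08 (adjusted p = 0.0213). P4ha2, a second catalytic subunit, averaged 14.4 ± 0.896 FPKM in Foxd1-Cre and 10.1 ± 1.48 FPKM in wild type, and 12.9 ± 1.06 FPKM in Six2-Cre and 8.98 ± 1.06 FPKM in wild type. It rose by 0.49 ± 0.09 (adjusted p = 0.00296) and 0.48 ± 0.10 (adjusted p = 0.0293). Single libraries decided the Six2-Cre calls of P4ha1 (adjusted p = 0.0677 to 0.0786 where lost) and P4ha2 (0.0508 to 0.0971). Serpinh1 averaged 421 ± 15.0 FPKM in Six2-Cre and 337 ± 6.77 FPKM in wild type (adjusted p = 0.00587). Summed stromal markers, given below, were lower than wild type in Foxd1-Cre and higher in Six2-Cre, and their part in these rises was not tested.

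Summed levels of cell type markers differed between mutants and wild types in these whole kidneys, and fewer cells of a type and less RNA per cell cannot be told apart in bulk RNA. The summed FPKM of 8 nephron progenitor markers was 301 to 342 in Foxd1-Cre and 377 to 479 in wild type, and 131 to 136 in Six2-Cre and 315 to 359 in wild type. That of 8 stromal markers was 471 to 550 in Foxd1-Cre and 618 to 760 in wild type, and 708 to 767 in Six2-Cre and 639 to 661 in wild type. Of these stromal markers 4 fell and 1 rose (Col3a1) in Foxd1-Cre, and 4 rose and 1 fell (Ntn1) in Six2-Cre. Beside the marker counts of this paragraph stand 8.45% of all genes called higher and 4.82% called lower in Foxd1-Cre. The Six2-Cre shares were 7.93% and 5.84%. In Six2-Cre 7 of the 8 progenitor markers fell and all 6 endothelial markers rose, and the summed endothelial level was 165 to 174 FPKM in Six2-Cre and 76.2 to 94.9 FPKM in wild type. The same sum was 122 to 160 FPKM in Foxd1-Cre and 106 to 139 FPKM in wild type. Summed erythroid markers were lower in Six2-Cre, at 2078 to 2448 FPKM, against 3942 to 4683 FPKM in wild type, and overlapped in set 1, at 2062 to 3330 FPKM in Foxd1-Cre and 2589 to 5602 FPKM in wild type. Of 6 tested erythroid markers, 5 fell and 1 rose (Epor) in Six2-Cre. In Foxd1-Cre 3 of them fell (Alas2, Epor and Slc4a1) and 3 did not pass, with a median log2 change of -0.56. All 6 were lower there at an unadjusted p under 0.05. Summed ureteric bud markers were 149 to 183 FPKM in Foxd1-Cre and 147 to 169 FPKM in wild type, and 101 to 106 FPKM in Six2-Cre and 141 to 154 FPKM in wild type. Those of neural and glial cells, which a dissection can bring along, were 29.5 to 39.6 FPKM in Foxd1-Cre and 18.3 to 21.7 FPKM in wild type, and 23.4 to 34.9 FPKM in Six2-Cre and 14.5 to 22.7 FPKM in wild type. The neural and glial markers did not move together in Foxd1-Cre: Tubb3, which overlaps Gm20388, averaged 22.4 ± 3.30 FPKM in Foxd1-Cre and 1.93 ± 0.362 FPKM in wild type and rose by 2.99 ± 0.11 (adjusted p = 5.5e-09). Stmn2 averaged 4.83 ± 1.19 FPKM in Foxd1-Cre and 10.2 ± 0.591 FPKM in wild type and fell by 0.97 ± 0.13 (adjusted p = 2.7e-04), and the 2 other tested markers did not pass. In Six2-Cre 2 of the 4 rose (Stmn2 and Tubb3) and 2 did not pass. Summed levels of muscle markers were 62.0 to 110 FPKM in Foxd1-Cre and 39.1 to 70.7 FPKM in wild type, and 40.5 to 59.3 FPKM in Six2-Cre and 35.6 to 41.9 FPKM in wild type, and those of macrophages were 21.4 to 27.4 FPKM in Foxd1-Cre and 16.7 to 29.9 FPKM in wild type, and 18.2 to 21.1 FPKM in Six2-Cre and 11.0 to 14.3 FPKM in wild type. Of 4 tested muscle markers, 2 rose in both mutants (Acta2 and Tagln). Of the others, 1 fell (Des) and 1 did not pass in Six2-Cre, and 2 did not pass in Foxd1-Cre. No marker was at 0 in every library of a group, the defining markers of nephron progenitors, stroma and ureteric bud included. The part of these differences in the changes of Pycr1, Phgdh and the other members was not tested.

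Pycr1 lies beside Notum, a secreted inhibitor of Wnt proteins and a target of the pathway, with 10018 bases between the ends of the 2 genes and Myadml2 in the gap. Notum (ENSMUSG00000042988, chromosome 11, 120653788 to 120661175, on the same strand) had 149, 124, 162, 196 and 176 FPKM in Foxd1-Cre, against 2.24 to 3.66 FPKM (median 2.57) in wild types 1 to 6. The 3 Six2-Cre libraries had 53.7, 65.7 and 57.7 FPKM, against 2.97, 1.59 and 2.42 FPKM in wild types 7 to 9. Mutants and wild types were far apart, and Notum rose by 5.45 ± 0.12 (adjusted p = 1.8e-10) and 4.19 ± 0.17 (adjusted p = 1.5e-04), more in Foxd1-Cre by 1.26 ± 0.20 (adjusted p = 0.00145). Notum overlaps the antisense gene Notumos. Its level stood above that of Pycr1 in every mutant library and below it in every wild type. Of the 9 Wnt targets listed, Notum among them, 8 rose in Foxd1-Cre, beside 8.45% of all genes called higher there. In Six2-Cre 6 of them rose and 2 fell, beside 7.93% of all genes called higher and 5.84% called lower.

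**Figure D4:**
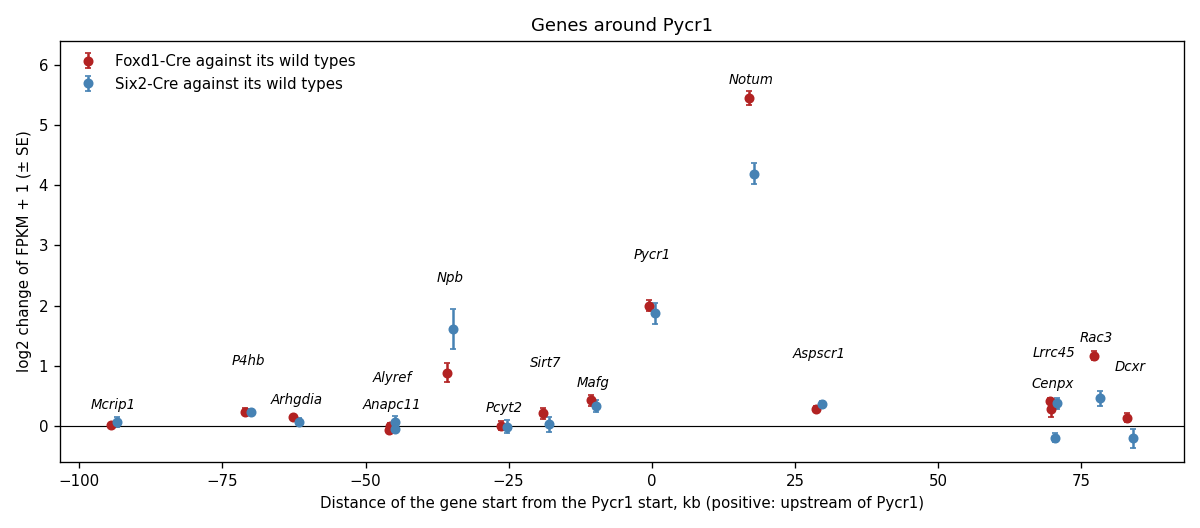
Log2 change of FPKM + 1 (± SE) of the tested genes within 100 kb of the Pycr1 start, by the distance of their own start in kb, positive on the upstream side of Pycr1. Notum (5.45 in Foxd1-Cre and 4.19 in Six2-Cre) and Pycr1 (2.00 and 1.87) stand above the other 14 genes, whose highest values are 1.17 and 1.61.

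The window of 100 kb to each side of the Pycr1 start was chosen after these values had been seen, so the plot of neighbours is a description. It holds 25 annotated genes, of which 20 are in the table and 16 were expressed enough to be fitted. Apart from Pycr1 and Notum, the 14 others had log2 changes between -0.06 and 1.17 in Foxd1-Cre, with a median of 0.22, and between -0.20 and 1.61 in Six2-Cre, with a median of 0.07. Myadml2, which lies between Pycr1 and Notum, was near 0 in all groups, at means of 0.0254 FPKM in Foxd1-Cre and 0.0218 FPKM in wild type, and 0.0559 FPKM in Six2-Cre and listed at 0 in wild type. Mafg, the nearest protein-coding gene on the downstream side, averaged 19.3 ± 1.93 FPKM in Foxd1-Cre and 14.1 ± 1.88 FPKM in wild type, and 16.4 ± 1.54 FPKM in Six2-Cre and 12.7 ± 1.21 FPKM in wild type (log2 0.43 ± 0.09 and 0.34 ± 0.10). Rac3, a small GTPase gene 77.7 kb upstream, averaged 40.2 ± 4.32 FPKM in Foxd1-Cre and 17.3 ± 1.62 FPKM in wild type, and 12.1 ± 2.19 FPKM in Six2-Cre and 8.45 ± 0.540 FPKM in wild type (1.17 ± 0.08 and 0.46 ± 0.13). Npb, a neuropeptide gene on the downstream side, was low, at 2.01 ± 0.307 FPKM in Foxd1-Cre and 0.662 ± 0.431 FPKM in wild type, and 2.93 ± 0.915 FPKM in Six2-Cre and 0.340 ± 0.589 FPKM in wild type. Its 1.61 ± 0.33 in Six2-Cre is the highest value among the 14 in that mutant. P4hb, the shared subunit of prolyl 4-hydroxylase named above, also lies in this window, on the downstream side.

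The genes whose pattern was most like that of Pycr1 were found by the root mean square distance over the 8 mutant libraries, in log2(FPKM + 1) minus the wild-type mean of the same set, among 10668 genes. They were Gap43 at a distance of 0.29, Dlgap1 at 0.31, Enpp2 at 0.35, Tnfrsf19 at 0.47, Lef1 at 0.48 and Dclk1 at 0.49. Gap43, a growth cone protein of neurons, averaged 54.5 ± 4.74 FPKM in Foxd1-Cre and 11.4 ± 1.69 FPKM in wild type, and 22.2 ± 3.56 FPKM in Six2-Cre and 7.19 ± 1.05 FPKM in wild type. Lef1, a DNA-binding partner of beta-catenin, had log2 changes of 2.38 in Foxd1-Cre and 1.30 in Six2-Cre, and Enpp2, the enzyme autotaxin, had 2.33 and 1.54. Likeness to a gene chosen for its change is a description, with no test.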

How the data were processed

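Kidneys were kept in RNAlater, and Illumina libraries were made from RNA that an RNeasy Micro Kit had purified, per the labels' protocols. The tools named are bcl2fastq 2.17.1.14 and Salmon, with GRCm38 as the build, per the submitters' processing notes. The authors deposited 1 table of FPKM values. The gene-level summary, the annotation release, scaling between libraries and use of strand are not given in the sources used here, and read counts were not used here. Symbols and positions came from GENCODE mouse release 21 (24189 IDs matched, 243 did not).

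From these values log2(FPKM + 1) was computed, which understates changes of low genes. A gene was kept if 3 or more libraries listed it at 1 FPKM or above (14014 genes), less those at 0 throughout a library set, which left 13996 and 13828. Mutant and wild-type libraries of each set were fitted in limma 3.58.1 (R 4.3.3) with a variance trend, and adjusted p under 0.05 was called. The difference of the mutant effects added squared SEs with Satterthwaite degrees of freedom, over 13810 genes. The library sets were recognised from the numbers of genes at 0 and the read steps, and the choice of controls follows them. Depth per library was estimated from the smallest FPKM step of 1928 genes with transcripts of 1500 to 4000 bases.

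The members, gene lists and tests were chosen with earlier results of these data known. Named genes are the 10 members, up to 3 genes with the smallest p-values of each list, the 6 genes most like Pycr1, and, named after their values were seen, Pycrl, Oat, Gpt2, Ddit3, Trib3 and the neighbours of Pycr1. In 10 simulations with 200 genes moved by 1 on the log2 scale, the fits recovered 95.8% of them for Foxd1-Cre, 78.2% for Six2-Cre and 81.6% for the difference, with 4.42%, 4.33% and 9.85% false calls. Recovery of smaller changes was not simulated. Since strand is not given, values of named genes that overlap another annotated gene are uncertain. Of the members, besides those marked in the text, these are Aldh18a1, Mthfd2 and Psat1. Other such genes include Aldh4a1, Axin2, Cth, Dclk1, Ddit3, Dlgap1, Enpp2, Fpgs, Gap43, Gart, Gldc and Glul. They also include Got2, Gsr, Gss, Hspa9, Hspd1, Lef1, Mafg, Mthfd1, Myadml2, Paics, Plod2, Shmt1 and Tnfrsf19. Some genes are not reported here. Alternatives tried were another pseudocount, other filters, another scaling, all 9 wild types as controls, a joint fit, a replicate block and leaving out each library. Promoter sequences came from RefSeq (GRCm38.p6).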

Additional observations from a re-analysis of the deposited data

Results flagged for a closer look

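In 116 sets of 5 or 6 libraries that were checked for a library far from the rest, 8 had one, and chance flags about 1 set in 20. Psat1 was lowest in Foxd1-Cre 2, at 72.2 FPKM, against 77.6 to 79.7 FPKM in the other Foxd1-Cre libraries. Hspa9 was lowest in Foxd1-Cre 5, at 167 FPKM, against 181 to 185 FPKM. Asns was highest in wild type 1, at 17.6 FPKM, against 15.7 to 16.4 FPKM in wild types 2 to 6, and Notum was highest in wild type 6, at 3.66 FPKM, against 2.24 to 2.75 FPKM. Wild type 5, which also has the fewest genes at 0 (5312), held 4 of the 8: Prodh was highest there, at 11.9 FPKM (others 8.94 to 9.53), Mthfd1 lowest at 26.8 FPKM (31.7 to 33.8), Gldc lowest at 9.33 FPKM (11.0 to 11.9) and Got2 lowest at 99.1 FPKM (112 to 115).

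The test of the difference of the mutant effects (Foxd1-Cre minus Six2-Cre, log2 ± SE, with Benjamini-Hochberg adjusted p over all genes) called 11.0% of 13810 genes. Most of the 51 named genes were picked for small p-values in the mutant comparisons, so nothing is read from their count against this share. Among the 51, 22 had effects that differed between the mutants by limma's estimates and by that test. Among enzymes of serine, proline and folate metabolism these were Phgdh (0.50 ± 0.09, adjusted p = 0.00400), Aldh4a1 (0.81 ± 0.12, 0.00189), Prodh (0.64 ± 0.14, 0.0179) and Mthfd1 (0.42 ± 0.08, 0.00176). Among genes of glutamate, transport and glutathione they were Got2 (0.31 ± 0.07, 0.0140), Got1 (0.56 ± 0.13, 0.0350), Glul (-0.30 ± 0.08, 0.0212), Slc38a1 (0.24 ± 0.06, 0.0182), Gsr (0.48 ± 0.10, 0.00592) and Gss (-0.96 ± 0.25, 0.0212). In translation control and chaperones they were Eif4ebp1 (0.52 ± 0.12, 0.0368), Eif2ak4 (-0.23 ± 0.06, 0.0289), Hspd1 (0.28 ± 0.08, 0.0218) and Hspa9 (0.19 ± 0.06, 0.0433). In nucleotide synthesis and ribosome building they were Paics (0.24 ± 0.06, 0.0152), Gart (0.25 ± 0.08, 0.0494), Myc (1.00 ± 0.07, 9.3e-06), Nolc1 (0.23 ± 0.06, 0.0253) and Polr1b (0.44 ± 0.09, 0.00769). Among Wnt targets they were Apcdd1 (2.03 ± 0.13, 2.4e-08), Notum (1.26 ± 0.20, 0.00145) and Axin2 (1.22 ± 0.11, 7.8e-06). Since the mutants lie in different library sets, mutant and set cannot be told apart in these differences. In the simulations above, the difference test made 9.85% false calls, against 4.42% for Foxd1-Cre and 4.33% for Six2-Cre. Differences with an adjusted p near 0.05 are therefore uncertain.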

How the results depend on the processing

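Pycr1 was higher in both mutants under every setting tried. It was chosen for that rise in these same libraries, so this is a description and no support for the rise. Its log2 change was 2.00 in Foxd1-Cre (2.20 against all 9 wild types, 1.95 to 2.09 without each library) and 1.87 in Six2-Cre (1.47 against all 9 wild types, 1.75 to 2.05 without each library). Pooling the wild types sets each mutant against libraries of the other set as well. It moved the genes called from 1856 to 1234 in Foxd1-Cre, from 1905 to 6444 in Six2-Cre and from 1519 to 8505 for the difference, and the members called of 9 to 0, 5 and 7, where the main counts were 1, 2 and 1. It also turned Afg3l2 in Foxd1-Cre to 0.11, Fpgs in Foxd1-Cre to 0.16 and Xbp1 in Six2-Cre to -0.07. The cause was not tested. Against all 9 wild types calls were also lost for Cth, Ctps, Eif4ebp1, Phgdh and Slc38a2 in Foxd1-Cre and for Gss, Polr1b, Serpinh1 and Slc38a1 in Six2-Cre. A joint fit called 3638 genes in Six2-Cre. With no filter on low values 0 members were called in Foxd1-Cre. Without each library the genes called were 1423 to 1922 in Foxd1-Cre, 907 to 1467 in Six2-Cre and 1036 to 1527 for the difference, and the members called were 0 to 1, 1 and 1. The count in Six2-Cre fell by over 1.5 times without Six2-Cre 1, 2 or 3 or wild type 7 or 8. Over all named genes, leaving out 1 library lost a call 104 times, gained one 7 times and left 909 values on their side. Whether replicate numbers pair the libraries was not settled. Same-numbered Foxd1-Cre and wild-type libraries deviated together only weakly, with r of 0.0224 to 0.0993, and values for differently numbered ones are not given. A replicate block called 1425 genes in Foxd1-Cre and gave 2.00 for Pycr1. No such block was possible for Six2-Cre, which shares no number with wild types 7 to 9. The depth of set 2 limits what can be said of genes near 1 FPKM there.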
